A study of Homo sapiens with 2 samples.

Results

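The miR-130, miR-301 and miR-454 family was examined in small RNA from the subline MDA-MB-231-IV2-1, which was selected for metastasis from MDA-MB-231, a human breast cancer cell line of the triple-negative class. The sample titles and the study's methods name the IV2 subline, whereas the cell line field of the labels gives MDA-MB-231. The control cells received a scrambled siRNA (N.C) and the knockdown cells a pool of siRNAs against the long non-coding RNA LOC550643, and RNA was taken 48 h after transfection in both conditions. There was 1 library per condition, so differences between them have no replicate check and no p-value is given. LOC550643 itself is not a miRNA, and its knockdown was not checked here. The members were the rows named miR-130a, miR-130b, miR-301a, miR-301b or miR-454, from either arm of the hairpin. The rule uses names alone, although the family was picked for description with earlier results of these data known. Of the 10 possible products of these 5 hairpins, 7 were listed in at least 1 library, among 425 miRNAs listed in all. Control cells gave 5 of the 7, knockdown cells gave 6, and 4 were shared. Of all 425 miRNAs, 376 were listed in control cells, 375 in knockdown cells and 326 in both.

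A miRNA is cut from a hairpin transcript, and either strand of the duplex, the 5p or the 3p arm, can be loaded into an Argonaute protein. The loaded strand finds its target mRNAs mainly through the seed, bases 2 to 8 from its 5′ end. The 3p strands of this family share one seed and are therefore expected to overlap in their predicted targets, and members of the family have been studied as promoters of growth and invasion in several tumour types. Their 5p strands have other seeds and are usually the less abundant arm.

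The mature sequences are shown because a shared seed is what joins the 3p members. Of the 10 products, 8 were matched by name to RefSeq (GRCh38.p14), and miR-130a-3p and miR-301b-5p were not. The seed is in capitals. The matched 3p products all carry AGUGCAA:
miR-130b-3p: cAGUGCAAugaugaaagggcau
miR-301a-3p: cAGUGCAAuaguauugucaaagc
miR-301b-3p: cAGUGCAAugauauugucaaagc
miR-454-3p: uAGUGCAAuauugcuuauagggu

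The matched 5p products carry 4 different seeds:
miR-130a-5p: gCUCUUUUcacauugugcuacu
miR-130b-5p: aCUCUUUCccuguugcacuac
miR-301a-5p: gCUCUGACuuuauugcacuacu
miR-454-5p: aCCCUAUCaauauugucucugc

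Outside the seed the 3p products diverge. Over the bases that could be compared, miR-301a-3p and miR-301b-3p differ at 2 of 23 positions, whereas miR-130b-3p and miR-301b-3p are identical over their first 12 bases and differ at 9 of 22 positions in all. The similarity matters for counting, since reads of near-identical miRNAs can be divided between names. All 11 values listed for the members lay within 0.1 of a whole number of reads, so no member was listed with a fraction of a read. The reverse complement of the seed, UUGCACU, stands at bases 13 to 19 of miR-130b-5p and of miR-301a-5p and is missing from miR-130a-5p and miR-454-5p. It occurs in 5 of the 350 listed miRNAs that were matched to RefSeq (1.43%).

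The 5 hairpins lie at 3 places in the genome (GENCODE 29, GRCh38). MIR130A is on the plus strand of chromosome 11 from 57641198 to 57641286, in an intron of the transcript AP000662.1. MIR301B (21652981 to 21653058) and MIR130B (21653304 to 21653385) follow each other on the plus strand of chromosome 22 with 245 bases between them. Both lie in the non-coding gene AP000553.1, MIR301B in an intron and MIR130B over an annotated exon. MIR454 (59137758 to 59137872) and MIR301A (59151136 to 59151221) are on the minus strand of chromosome 17, 13263 bases apart, and both are intronic in SKA2, which encodes a subunit of the spindle and kinetochore-associated complex. The hairpins of the 2 most abundant members in control cells are given below with their mature arms in capitals, the 5p arm first:
MIR130B: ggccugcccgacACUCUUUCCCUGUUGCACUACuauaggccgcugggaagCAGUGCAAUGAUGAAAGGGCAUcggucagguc
MIR454: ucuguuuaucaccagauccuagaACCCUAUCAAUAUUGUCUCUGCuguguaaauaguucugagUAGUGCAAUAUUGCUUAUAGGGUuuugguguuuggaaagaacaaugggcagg

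The deposited values are normalised read counts (RPM), scaled by the authors so that they sum to 999996 in the control and 999845 in the knockdown. From the spacing of the low values, 1 read was worth 5.29 RPM in the control cells and 2.03 RPM in the knockdown cells, which puts the libraries at about 189034 and 491541 miRNA reads. A value of 3 reads or fewer, at most 15.9 RPM in the control and 6.10 RPM in the knockdown cells, was treated as being at the floor. The intervals given here are 95% Clopper-Pearson intervals of the estimated reads. They cover counting error alone, with no allowance for PCR duplicates or for differences between cultures. The cells showed little of the miR-200 group that marks epithelial cells. Of 5 products chosen after their values were seen, miR-200a-3p, miR-200b-3p, miR-200c-3p, miR-141-3p and miR-429, the highest value was 7.12 RPM, for miR-200b-3p in the knockdown cells.

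The family was a minor part of both libraries. Its summed level in the control cells was 116 RPM, from 22 reads (interval 72.9 to 176 RPM). In the knockdown cells it was 87.5 RPM, from 43 reads (63.3 to 118 RPM). These sums amount to 0.0116% and 0.00875% of the miRNA reads. The ratio of knockdown to control was 0.752, with an interval of 0.44 to 1.32, so a difference of the family total was not detectable at this depth. With 22 reads in the control cells, the interval would have excluded 1 only with 31 reads or fewer in the knockdown cells (a ratio of 0.542) or with 92 or more (1.61).

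**Figure D1:**
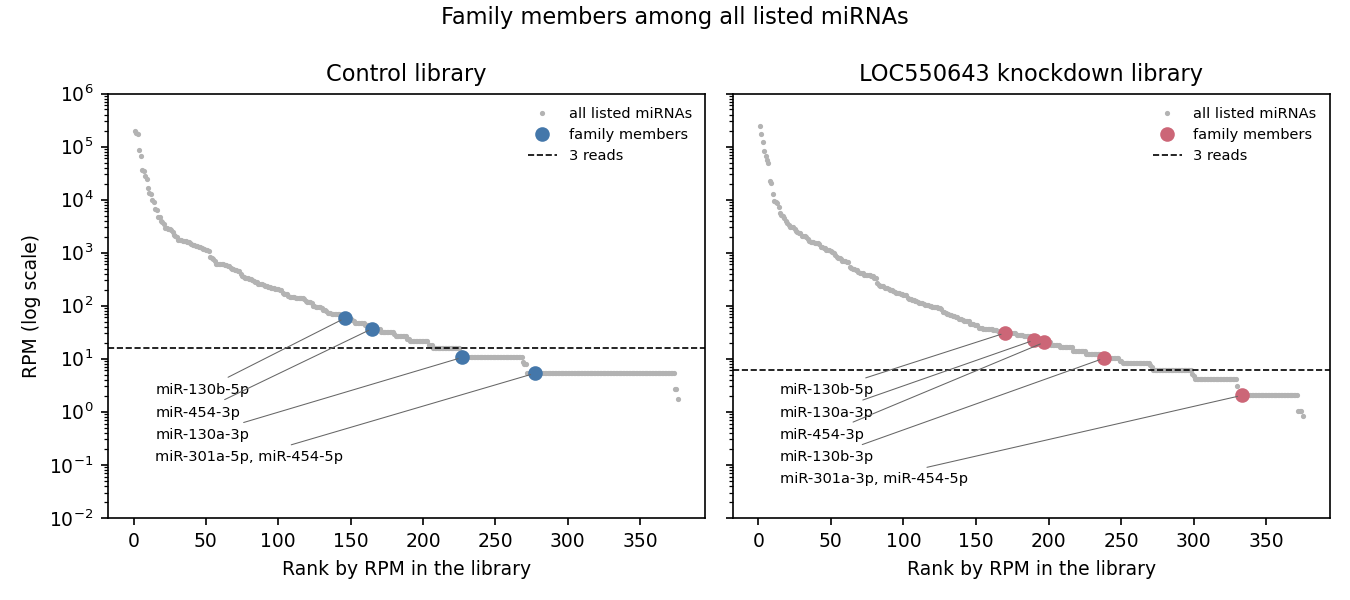
RPM on a log axis against rank in the library for all listed miRNAs (grey), with the family members in colour and the value of 3 reads as a dashed line, for the control (left) and the knockdown (right). The highest member, miR-130b-5p, ranks 146 in the control cells and 170 in the knockdown cells, and 2 members in each library sit at 1 read.

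The most abundant member in both libraries was miR-130b-5p, from the 5p arm of MIR130B. In control cells 11 reads put it at 58.2 RPM (29.05 to 104 RPM) and rank 146 of 376. In knockdown cells 15 reads put it at 30.5 RPM (17.1 to 50.3 RPM) and rank 170 of 375. The knockdown value was the lower one, but the intervals overlapped. The ratio was 0.524, with an interval of 0.225 to 1.26, and with 11 control reads only ratios up to 0.385 or from 1.96 could have been told from 1.

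The 3p arm of the same hairpin, miR-130b-3p, is the strand that carries the family seed. It had no read in the control cells, where the interval reaches 19.5 RPM, and 5 reads in the knockdown cells (10.2 RPM, 3.30 to 23.7 RPM). Because 10.2 RPM is under what the control cells could have missed, no fold is given. Within MIR130B the 5p arm thus had more reads than the 3p arm in both libraries, 11 against 0 and 15 against 5.

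The second member of the control cells was miR-454-3p, a carrier of the family seed from an intron of SKA2. Its 7 reads in control cells correspond to 37.0 RPM (14.9 to 76.3 RPM), and its 10 reads in knockdown cells to 20.3 RPM (9.76 to 37.4 RPM). The ratio was 0.549, with an interval of 0.189 to 1.70, so this lower value was also within counting error. Its partner arm miR-454-5p had 1 read in each library, 5.29 RPM and 2.03 RPM. For MIR454 the arm with the family seed was therefore the main product, the opposite order to that seen for MIR130B.

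For miR-130a-3p the order of the libraries was reversed. This member, which has been linked to angiogenesis in endothelial cells, had 2 reads in control cells (10.6 RPM, 1.28 to 38.2 RPM) and 11 reads after knockdown (22.4 RPM, 11.2 to 40.04 RPM). The ratio was 2.12, with an interval of 0.462 to 19.6. The knockdown value was the higher one, yet the control value was at the floor and the intervals overlapped. The level of miR-130a-3p in the knockdown cells exceeded that of miR-454-3p by 1 read, and the intervals of these members overlapped. The order of members within a library was not tested. No read of miR-130a-5p was listed in either library.

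The miR-301 hairpins gave almost no reads. From MIR301A, miR-301a-5p had 1 read in the control cells (5.29 RPM) and none in the knockdown cells, whereas miR-301a-3p had none in the control cells and 1 in the knockdown cells (2.03 RPM). From MIR301B neither arm was listed. For miR-301b-3p and for miR-301b-5p the interval reaches 19.5 RPM in the control cells and 7.505 RPM in the knockdown cells. Levels of each arm up to these values could have been missed. No fold is given for any product of MIR301A or MIR301B.

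**Figure D2:**
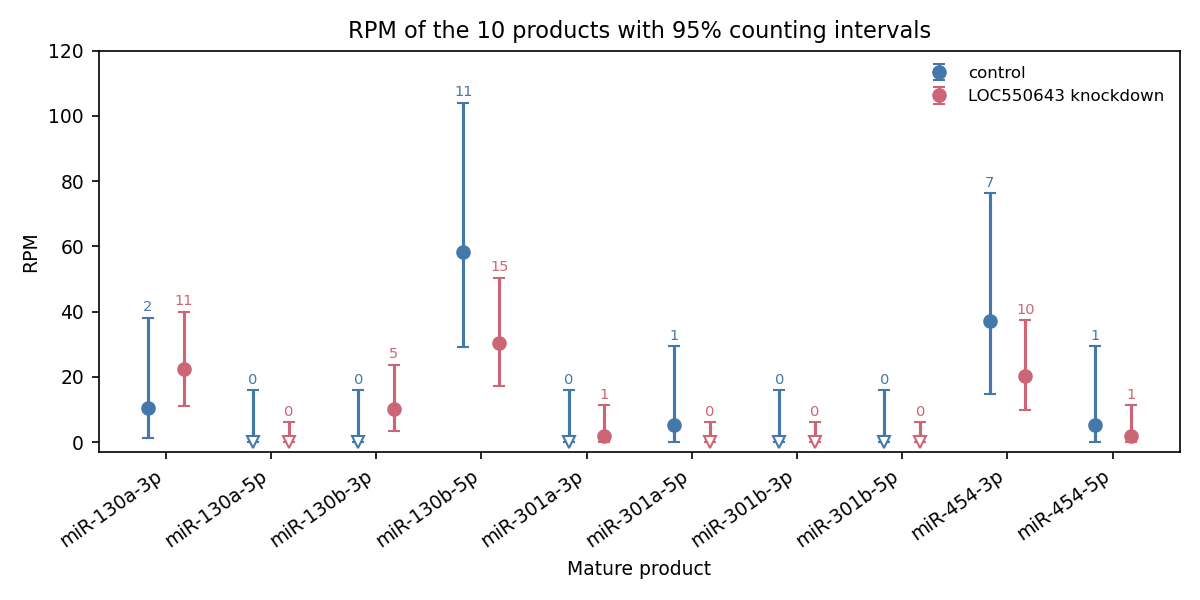
RPM of each of the 10 products in the control (blue) and LOC550643 knockdown (red) libraries, with 95% counting intervals and the estimated reads written above. Open triangles mark products with no read, and their bars reach the value of 3 reads rather than the upper end of the interval. The computed intervals of the libraries, which for these products reach higher than the bars, overlap for every product.

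Folds were counted with 1 RPM added to each value before taking log2. This shrinks the folds of low miRNAs with reads in both libraries. Where a library had 0 reads, the added value sets the size of the fold, and a single read against none passes 2-fold. Of the 7 listed members, 3 were over 2-fold higher after knockdown (miR-130a-3p, miR-130b-3p and miR-301a-3p). Among all 425 miRNAs 17.9% were. In the other direction 2 of the 7 members passed (miR-301a-5p and miR-454-5p), against 27.3% of all miRNAs. The number of lower members depended on the setting. At a threshold of 1.5-fold 4 of the 7 passed, now with miR-130b-5p and miR-454-3p, against 150 of all 425 miRNAs. Under median-of-ratios scaling 1 of the 7 passed, against 90 of the 425. Each of the 5 members past 2-fold had 3 reads or fewer in at least 1 library. For miR-130b-3p, miR-301a-3p and miR-301a-5p 1 library had 0 reads, and miR-454-5p was counted as lower with the same single read in each. Of the 2 members with more than 3 reads in both libraries, miR-130b-5p and miR-454-3p, none passed 2-fold in either direction. Among the 201 miRNAs above the floor on both sides, 3.48% exceeded 2-fold upwards and 10.9% downwards. The 7 members had a median log2 fold change of -0.83, against -0.20 for all miRNAs. That median is the value of miR-454-3p, whose difference was within counting error. The single members ran from -2.65 (miR-301a-5p) to 3.48 (miR-130b-3p), each with 0 reads in 1 library. The median is therefore not read as a shift of the family.

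The arms were then summed, because only the 3p arms share the seed. The 4 listed 3p products had 9 reads in control cells, or 47.6 RPM (21.8 to 90.4 RPM), and 27 reads after knockdown, or 54.9 RPM (36.2 to 79.9 RPM). The 3 listed 5p products were at 68.8 RPM (13 reads, 36.6 to 118 RPM) and 32.5 RPM (16 reads, 18.6 to 52.9 RPM). The ratio of knockdown to control was 1.15 for the 3p arms (interval 0.527 to 2.79) and 0.473 for the 5p arms (0.213 to 1.07). The lower family total of the knockdown cells thus came with a lower 5p sum and a slightly higher 3p sum, and neither difference exceeded counting error.

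Grouping by genomic place gave the same picture of differences within error. The pair on chromosome 22, to which only MIR130B contributed reads, was at 58.2 RPM in the control and 40.7 RPM in the knockdown cells, a ratio of 0.699 (interval 0.319 to 1.62). The pair in SKA2 was at 47.6 RPM (9 reads) and 24.4 RPM (12 reads), a ratio of 0.513 (0.198 to 1.38). The hairpin on chromosome 11, represented by miR-130a-3p alone, was the only one of these 3 places with the higher value in the knockdown cells.

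**Figure D3:**
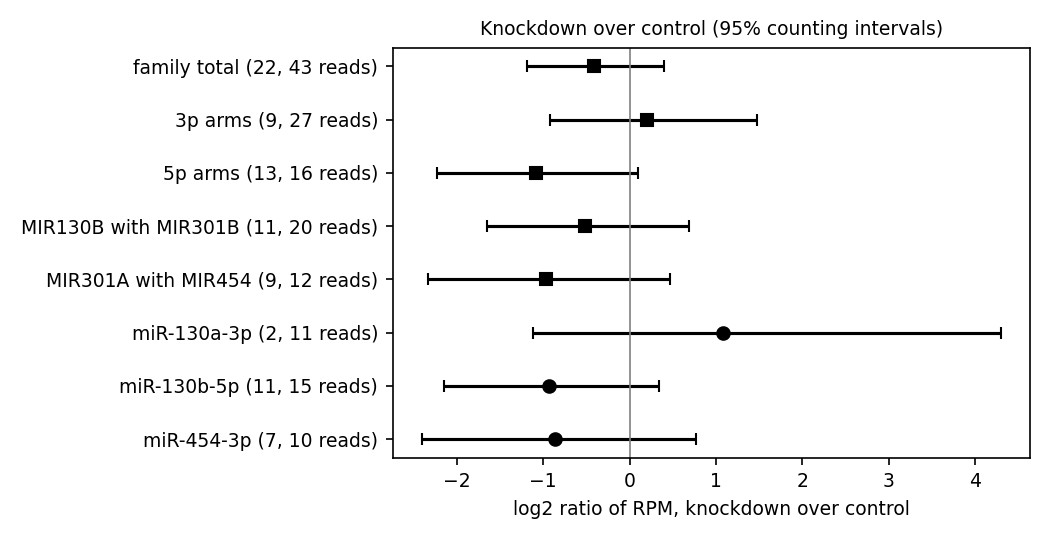
Log2 ratio of RPM, knockdown over control, with 95% counting intervals, for the family total, the arm sums and the neighbouring hairpin pairs (squares) and for the 3 single products with more than 1 read in both libraries (circles). Estimated reads of the control and knockdown libraries are in brackets, and every interval includes 0.

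The makeup of the family does not depend on the scaling between libraries. In the control cells miR-130b-5p supplied 50% of the family reads (11 of 22, interval 28.2% to 71.8%), miR-454-3p 31.8% (13.9% to 54.9%) and miR-130a-3p 9.09% (1.12% to 29.2%). In the knockdown cells the corresponding shares were 34.9% (15 of 43, 21.0% to 50.9%), 23.3% (11.8% to 38.6%) and 25.6% (13.5% to 41.2%), and miR-130b-3p added 11.6% (3.89% to 25.1%). The 3p arms held 40.9% of the family reads in the control cells (20.7% to 63.6%) and 62.8% in the knockdown cells (46.7% to 77.02%). That difference of 21.9 percentage points had an interval of -3.36 to 43.7 (Newcombe) and was not beyond counting error. Outside the family, the products named as 3p held 33.9% of the RPM in the control cells and 40.8% in the knockdown cells. Much of that RPM was miR-148a-3p, the most abundant miRNA of both libraries. Without it, an alternative chosen after seeing the data, the shares were 17.8% and 21.7%.

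Among the 3p arms alone, miR-454-3p made up 7 of 9 reads in the control cells (77.8%, interval 39.99% to 97.2%) and 10 of 27 in the knockdown cells (37.0%, 19.4% to 57.6%). The difference, -40.7 percentage points, had an interval of -62.9 to -3.21. It was the single one of 22 share differences computed, several of which overlap in their reads, whose interval excluded 0. The intervals were not adjusted for their number, and the control side rests on 9 reads.

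**Figure D4:**
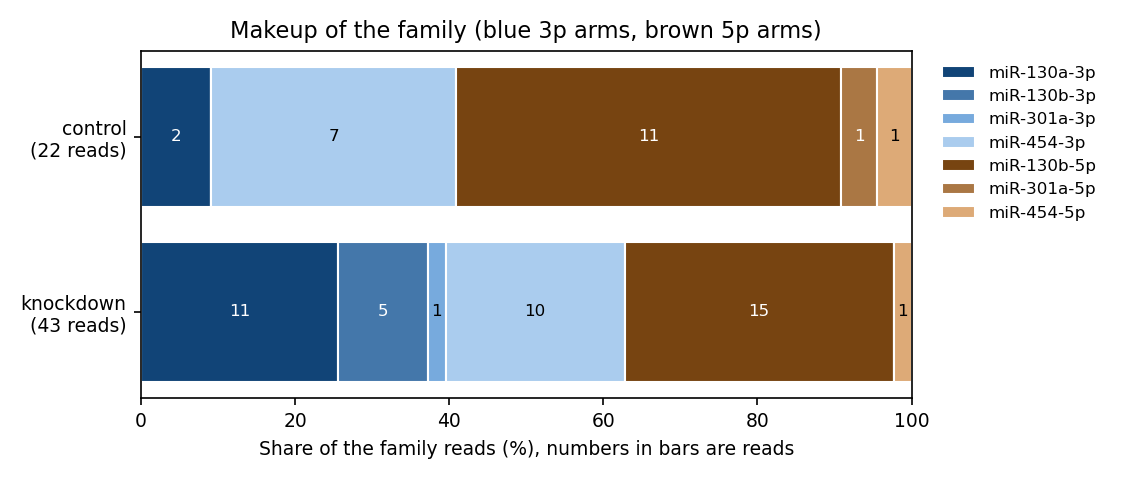
Share of the family reads held by each product in the control and knockdown libraries, with the 3p arms in blue, the 5p arms in brown and the estimated reads written in the bars. The 3p arms hold 40.9% of 22 reads in the control cells and 62.8% of 43 reads in the knockdown cells.

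Other miRNAs place these levels in context. The seed AGUGCAA is also carried by miR-3666 and miR-4295, and neither was listed in a library. Among the matched miRNAs, AGUGCAA ranked 110 of 259 seeds by summed RPM in the control cells and 115 of 246 in the knockdown cells, at 37.0 and 32.5 RPM. These sums hold miR-454-3p, miR-130b-3p and miR-301a-3p but not miR-130a-3p, which had no matched sequence. With miR-130a-3p the 3p products came to 47.6 and 54.9 RPM, as given above, and the knockdown sum was the higher one. Seeds shifted by 1 base differ widely in level. The miR-148 products have the first 7 bases of miR-130b-3p, CAGUGCA, as their bases 2 to 8:
miR-148a-3p: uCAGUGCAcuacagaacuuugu
miR-148b-3p: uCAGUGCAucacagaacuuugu
Together they were at 199097 RPM in the control cells and 247025 RPM in the knockdown cells, about 4182 and 4498 times the sum of the family's 3p arms. Shifted the other way, miR-19a-3p and miR-19b-3p, which begin their seeds with GUGCAA, summed to 47.6 and 22.4 RPM. This is 1.00 and 0.407 times the sum of the family's 3p arms. The control and knockdown reads were few, 4 and 8 for miR-19a-3p and 6 and 3 for miR-19b-3p. No interval was computed for these multiples, so their difference is not read as a change. Of the 124 miRNAs outside the family with a mean of at least 100 RPM, let-7d-5p, miR-185-5p and miR-27b-3p had the log2 fold changes nearest to that of miR-130b-5p (-0.91), with -0.92, -0.93 and -0.87. With 2 libraries this likeness rests on 1 difference.

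The study asked which miRNAs LOC550643 might bind, and the family was searched for seed matches in its 3 isoforms V1 (718 nt), V2 (581 nt) and V3 (476 nt). For the 8 products with a RefSeq sequence, the reverse complements of bases 2 to 8, 2 to 7 and 3 to 8 were looked for on the transcript strand. The sites of the 3p seed are TTGCACT (7 bases), TGCACT and TTGCAC (6 bases each, both contained in the first). No isoform held any of these, nor any site of the 4 searched 5p products. Of the 350 matched miRNAs, 21 (6.0%) had a 7-base site in an isoform and 90 (25.7%) a 6-base site. In the first 718 bases of 116724 GENCODE transcripts at least that long, TTGCACT occurred in 3.38% and one of the 6-base sites in 22.2%. The absence concerns these letters in these isoforms.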

How the data were processed

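The data are 1 small RNA library from control cells and 1 from cells given LOC550643 siRNAs. A tool of the authors named and counted the miRNAs, and the deposited values are RPM, in 1 table per library. The submitters' processing notes also name FastQC, cutadapt and hg38; the miRNA release and low-value filters are not given in the sources used here. The labels and the methods name different library kits and sequencers.

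Missing miRNAs were set to 0, and libraries were rescaled to the same total for folds (pseudocount 1 RPM). The RPM of 1 read was fitted to values up to 20 reads, starting from the most frequent low value. Of these values 92.9% of 253 (control) and 91.5% of 224 (knockdown) were whole within 0.1 read, too few for a count test. Reads are therefore estimates. Ratio intervals come from the exact binomial share of the knockdown reads among both libraries (scipy 1.17.1), and those of share differences from statsmodels 0.14.6. Sequences were read from RefSeq tables and, for LOC550643, from the study's supplement. The code was tested on simulated data. Named miRNAs were all family products, miRNAs with the same or a 1-base shifted seed, the 3 nearest in fold change and, outside this rule, 5 miR-200 products. Members and lists were chosen with earlier results of these data known. Alternatives covered scaling, pseudocount, arms and low-value filters.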

Additional observations from a re-analysis of the deposited data

How the results depend on the processing

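No paired analysis was possible because control and knockdown are single libraries. The log2 fold change of the family total, -0.41, was 0.20 when the 3p arms alone were summed, which turned its direction, and -0.03 without miR-130b-5p. It stayed between -0.44 and -0.21 over the other scalings, -0.37 or lower over the other pseudocounts, and was -0.89 over members above 3 reads in both libraries. Median-of-ratios scaling raised all log2 ratios by 0.20. The log2 fold changes of miR-130a-3p, miR-130b-5p and miR-454-3p kept their sign under all scalings and pseudocounts, but that of miR-130a-3p, 1.014, was 0.65 with a pseudocount of 10 RPM and no longer beyond 2-fold. Some shares moved with their denominator. Among members above 3 reads in both libraries, the knockdown share of miR-130b-5p was 60.0% and that of miR-454-3p 40%. Among the 3p arms, the control share of miR-454-3p was 77.8%. The numbers of all miRNAs beyond 2-fold, 76 higher and 116 lower, were 3 and 7 at a mean of at least 100 RPM, where no member remained, and 19 and 25 with a pseudocount of 10 RPM, where 1 member was higher and none lower. With 22 and 43 family reads, depth limits every comparison made here, and variation between cultures could not be measured with 1 library per condition.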
